A study of Mus musculus with 9 samples.

Results

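A set of 10 genes of the fibroblast growth factor (FGF) system was followed through the layers of mouse piriform cortex: the receptors Fgfr1, Fgfr2 and Fgfr3, the secreted ligands Fgf1, Fgf2, Fgf9 and Fgf10, and the FGF homologous factors Fgf12, Fgf13 and Fgf14. The 10 genes were chosen by name, with earlier results of these data known, out of 33964 genes with an annotated transcript. Each is represented by its transcript with the highest mean count over all samples. The tissue came from C57BL/6 wild-type mice, cut from fresh-frozen sections by laser capture, and the labels name no transgene and no drug or other treatment of the animals. There were 9 samples, 3 replicates each of layers A, B and C. The labels give an age of 8 weeks for every sample, and the published methods give another age. Neither source ties the letters to the numbered layers of the piriform cortex, so the letters are used as they stand, and nothing states whether replicates came from separate animals. The p-values then measure only the spread between these samples.

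Secreted FGFs bind receptor tyrosine kinases on the cell surface together with heparan sulphate chains, and the bound receptor passes its signal through the adaptor Frs2 and the Ras and MAP kinase relay. In adult cortex, Fgfr3 is known as a gene of astrocytes, Fgfr2 as a gene of astrocytes and oligodendrocytes, and Fgfr1 as a receptor that neurons also use. The homologous factors have the FGF fold but are not secreted, do not act through these receptors in the usual way, and bind the tail of voltage-gated sodium channels inside neurons.

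The promoters of 4 members are shown because these genes represent the 3 patterns described below: Fgfr2 and Fgfr3 were highest in layer A, Fgf12 was lowest there, and Fgf13, a relative of Fgf12, passed no test. Each sequence is from RefSeq on GRCm38.p6, runs 5′ to 3′ on the strand of the gene from 250 bases before to 50 bases after a RefSeq start, and has every GC box (GGGCGG on either strand) in capitals.
Fgfr2, chr7:130266759-130267058, minus strand: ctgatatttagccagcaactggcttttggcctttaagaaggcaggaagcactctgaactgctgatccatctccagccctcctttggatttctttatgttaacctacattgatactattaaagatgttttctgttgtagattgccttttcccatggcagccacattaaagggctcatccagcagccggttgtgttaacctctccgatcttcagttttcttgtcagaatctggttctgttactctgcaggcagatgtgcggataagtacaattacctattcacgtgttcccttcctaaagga
Fgfr3, chr5:33721474-33721773, plus strand: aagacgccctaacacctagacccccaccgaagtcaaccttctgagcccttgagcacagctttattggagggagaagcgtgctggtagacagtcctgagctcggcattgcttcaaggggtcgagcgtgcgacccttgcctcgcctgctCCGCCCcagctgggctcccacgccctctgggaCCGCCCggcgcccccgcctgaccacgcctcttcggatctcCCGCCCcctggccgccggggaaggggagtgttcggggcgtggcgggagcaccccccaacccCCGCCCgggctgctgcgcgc
Fgf12, chr16:28446026-28446325, minus strand: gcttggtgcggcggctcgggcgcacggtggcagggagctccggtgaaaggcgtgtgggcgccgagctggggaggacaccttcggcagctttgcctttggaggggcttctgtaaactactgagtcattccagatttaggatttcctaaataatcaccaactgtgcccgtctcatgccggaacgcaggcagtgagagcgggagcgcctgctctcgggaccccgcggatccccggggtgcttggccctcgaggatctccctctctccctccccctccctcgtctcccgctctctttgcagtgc
Fgf13, chrX:59134387-59134686, minus strand: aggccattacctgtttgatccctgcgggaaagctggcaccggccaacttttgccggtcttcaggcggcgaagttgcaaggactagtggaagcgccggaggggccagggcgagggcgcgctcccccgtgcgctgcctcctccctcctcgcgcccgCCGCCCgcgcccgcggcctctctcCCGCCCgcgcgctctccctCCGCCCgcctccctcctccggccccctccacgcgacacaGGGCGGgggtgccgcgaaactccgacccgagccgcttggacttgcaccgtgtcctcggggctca
For Fgfr3 and Fgf13 the RefSeq start was also the first base of the highest-count transcript, and for Fgf12 it lay 202 bases from that base. For Fgfr2 it lay 563 bases upstream, so the Fgfr2 window does not contain the first base of its highest-count transcript.
The promoter of Fgfr3 held 4 GC boxes and 26 CpG dinucleotides at a GC content of 69.7%. That of Fgfr2 held no GC box and 4 CpG at 43.7% GC, and it held 1 copy of CACGTG, the E box. Fgf12 had no GC box and 22 CpG at 63.7% GC, and Fgf13 had 4 GC boxes and 37 CpG at 73.0% GC.
Among 32851 promoters of the same length, 35.7% held a GC box, 7.15% held CACGTG, and the median was 52.7% GC with 7 CpG. TATAAA, found in 13.6% of all promoters, and TGACGTCA, found in 1.79%, were in none of the 4 windows on either strand. None of these motifs contains another.

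Counts per transcript totalled 23104306 to 76471683 per sample. The share of mitochondrial ribosomal RNA was 55.3 to 70.2% for layer A, 12.8 to 28.1% for layer B and 20.5 to 57.1% for layer C. Levels are given as CPM, counts scaled to a common library size corrected by edgeR's TMM method, and 3 counts, taken as the floor of detection, correspond to 0.0747 to 0.254 CPM in layer A, 0.0624 to 0.0692 CPM in layer B and 0.0255 to 0.191 CPM in layer C on that scale. Reads carried no molecular identifiers, so this floor covers counting error only. Layer B replicate 3 stood apart within its layer: its log2 CPM correlated with those of the other replicates of layer B at 0.888 and 0.880, against 0.978 between those 2 samples, across transcripts. Pairs of layer A samples correlated at 0.894 to 0.913, and pairs of layer C samples at 0.905 to 0.960. Results that rest on it are given with and without it.

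Layer A differed from both other layers in the FGF system. Between layers A and B, 7 of the 10 members passed an adjusted p-value of 0.05 in edgeR's quasi-likelihood test, 5 higher and 2 lower in layer A. In the same test 16.5% of all 56416 tested transcripts and 20.9% of the highest-count transcripts of 15174 genes passed, 13.2% of those genes higher and 7.65% lower. Between layers A and C, 5 members passed, 4 higher and 1 lower, beside 11.3% of all transcripts and 14.8% of genes (9.33% higher and 5.46% lower). The second count was 3 without layer C replicate 1, where Fgfr3 and Fgf12 no longer passed, and 8 without layer B replicate 3, where Fgf10, Fgf13 and Fgf14 also passed. The calls over all transcripts moved the same way, from 6389 of 56416 on all samples. They were 1369 of 55950 without layer C replicate 1 and 9742 of 55684 without layer B replicate 3. The median log2 fold change over the 10 members was 1.23 for A minus B and 1.08 for A minus C, and over all 15174 genes it was -0.16 and -0.02. Both comparisons use the same layer A samples, and the members were chosen with earlier results of these data known. Over all 3 layers together, 6 members passed, beside 14.3% of transcripts and 18.5% of genes.

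**Figure D1:**
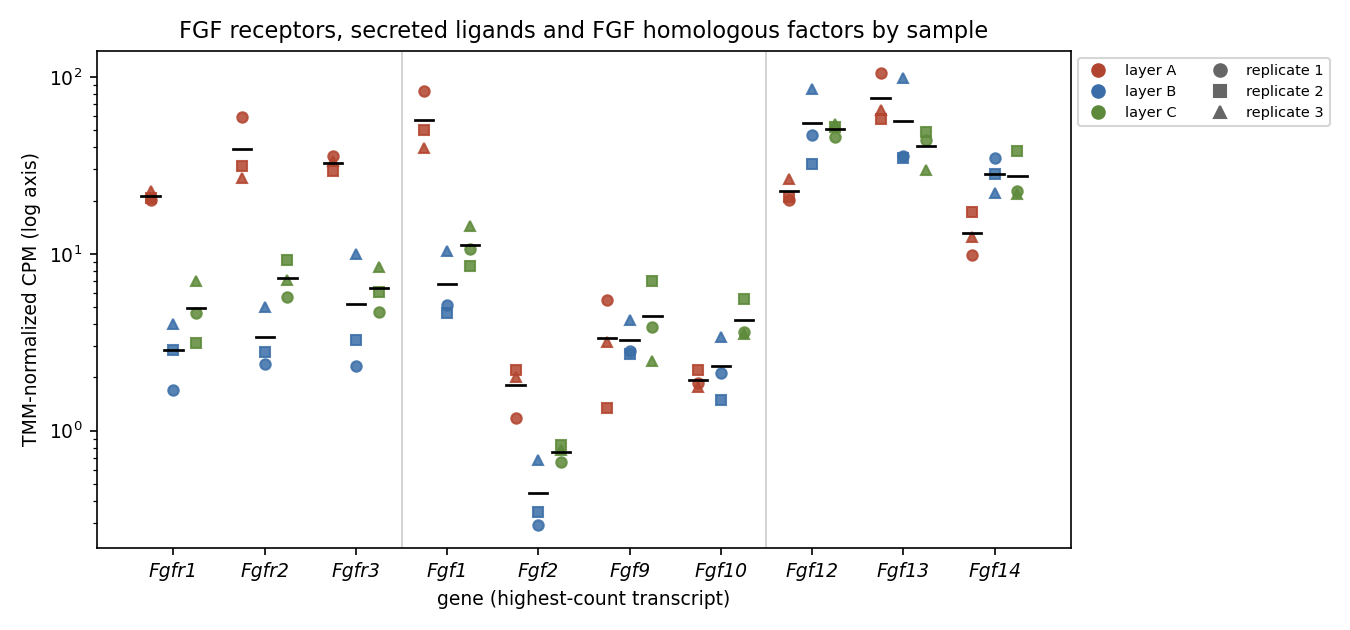
TMM-normalized CPM (log axis) of the 10 members in each sample, with layers in colour, replicates by marker shape and the layer mean as a black bar. The receptors Fgfr1, Fgfr2 and Fgfr3 and the ligands Fgf1 and Fgf2 have every layer A sample above every other sample, and Fgf12 and Fgf14 have every layer A sample below.

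The 3 receptors were high in layer A and low in layers B and C. Fgfr1 (ENSMUST00000084027, chr8:25518759-25575718 on GRCm38, plus strand) had 20.1, 20.7 and 22.6 CPM in layer A, 1.70, 2.86 and 4.03 CPM in layer B, and 4.63, 3.12 and 6.97 CPM in layer C. All layer A samples lay above all others, and the layer A values differed little among themselves. The level was 7.37-fold higher than in layer B (log2 2.88 ± 0.41 SE, adjusted p = 0.000369) and 4.26-fold higher than in layer C (log2 2.09 ± 0.39 SE, adjusted p = 0.005) in edgeR's test.

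Fgfr2 (ENSMUST00000153166, chr7:130162512-130266245, minus strand), which had the largest point estimate of the 10 members in both comparisons, had 59.7, 31.6 and 27.0 CPM in layer A, 2.38, 2.79 and 4.99 CPM in layer B, and 5.73, 9.24 and 7.07 CPM in layer C. Replicate 1 was well above the other layer A samples, and even the lowest layer A sample exceeded every sample of layers B and C. Its level in layer A was 11.6-fold that of layer B (log2 3.54 ± 0.42 SE, adjusted p = 0.0002) and 5.38-fold that of layer C (log2 2.43 ± 0.40 SE, adjusted p = 0.00277). The annotation calls this transcript a target of nonsense-mediated decay, but 2 other Fgfr2 transcripts had mean counts within 10% of it, and such overlapping counts cannot be assigned to one isoform. Fgfr2 was also the member, with Fgf10, for which every layer B sample was below every layer C sample.

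Fgfr3 (ENSMUST00000114411, chr5:33721724-33737068, plus strand) had 35.6, 29.3 and 33.5 CPM in layer A, 2.33, 3.25 and 10 CPM in layer B, and 4.68, 6.05 and 8.41 CPM in layer C. Layer A again lay above all other samples, and the value of 10 CPM in layer B replicate 3 was 3 times or more those of its fellow replicates. Expression in layer A was 6.30-fold that of layer B (log2 2.65 ± 0.48 SE, adjusted p = 0.00174) and 5.12-fold that of layer C (log2 2.36 ± 0.47 SE, adjusted p = 0.00676). Without layer B replicate 3 the first log2 value rose to 3.61, and without layer C replicate 1 the second became 2.17 with an adjusted p of 0.0565 in edgeR's test.

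Of the remaining receptor genes, Fgfrl1 passed and Fgfr4 was too low to be tested. Fgfrl1, a receptor-like protein without the kinase part, had 4.57, 4.40 and 6.20 CPM in layer A, 0.673, 1.04 and 1.89 CPM in layer B, and 0.882, 1.15 and 2.02 CPM in layer C, and rose by log2 2.08 against layer B (adjusted p = 0.00837) and 1.89 against layer C (adjusted p = 0.0206). Fgfr4 did not reach the filter of 10 counts in 3 samples.

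Among the ligands, Fgf1 and Fgf2 went with the receptors and Fgf9 and Fgf10 did not. Fgf1 (ENSMUST00000040647), the acidic FGF that binds all the receptors, had 82.9, 50 and 39.5 CPM in layer A, 5.11, 4.63 and 10.4 CPM in layer B, and 10.6, 8.54 and 14.5 CPM in layer C. The layer A samples spread over a factor of more than 2 without reaching the other layers. Its level was 8.54-fold higher than in layer B (log2 3.09 ± 0.41 SE, adjusted p = 0.000273) and 5.11-fold higher than in layer C (log2 2.35 ± 0.40 SE, adjusted p = 0.00309).

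Fgf2 (ENSMUST00000138563, chr3:37348346-37405377, plus strand), the basic FGF, was far lower, with 1.18, 2.20 and 2.02 CPM in layer A, 0.292, 0.346 and 0.686 CPM in layer B, and 0.662, 0.828 and 0.774 CPM in layer C. These values rest on 13 to 91 counts per sample. Layer A did not overlap either layer, and the difference passed against layer B (log2 2.03 ± 0.53 SE, adjusted p = 0.015) but not against layer C (log2 1.27 ± 0.52 SE, adjusted p = 0.136). The first call was lost when layer A replicate 2 or layer B replicate 1 or 2 was left out, with log2 values of 1.88, 1.84 and 1.91 and adjusted p-values of 0.0556, 0.0763 and 0.0604. Fgf2 overlaps the antisense gene Nudt6, and without strand the reads of both cannot be told apart.

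Fgf9 (ENSMUST00000165526, chr14:58070547-58112720, plus strand), a ligand made by neurons, showed no order of layers. It had 5.50, 1.33 and 3.16 CPM in layer A, 2.80, 2.72 and 4.2 CPM in layer B, and 3.87, 7.01 and 2.48 CPM in layer C, and the 3 ranges overlapped. The log2 difference was 0.03 ± 0.51 SE for A minus B and -0.41 ± 0.51 SE for A minus C, and the adjusted p-values were 0.98 and 0.696.

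Fgf10 (ENSMUST00000022246, chr13:118714699-118792115, plus strand), a ligand known from epithelial organs that signals through Fgfr2, leaned towards layer C. Its levels were 1.86, 2.20 and 1.77 CPM in layer A, 2.11, 1.5 and 3.39 CPM in layer B, and 3.63, 5.54 and 3.52 CPM in layer C, so that every layer C sample was above all others. The difference A minus C was log2 -1.12 ± 0.42 SE with an adjusted p of 0.109, and B minus C was log2 -0.85 ± 0.41 SE. Without layer B replicate 3 the difference A minus C was -1.11 and passed, with an adjusted p of 0.0458.

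The remaining ligand genes were mostly at the edge of detection. Of 17 other genes of the family, Fgfr4 and Fgfrl1 included, 4 passed the low-count filter. Of the 13 below it, 4 had no count in any sample, and the highest count in 1 library was 22, for Fgf20. Fgf5 had 0.169, 0.200 and 0.921 CPM in layer A, 2.89, 1.61 and 3.95 CPM in layer B, and 1.45, 2.17 and 0.910 CPM in layer C, and it fell by 2.52 on the log2 scale in layer A against layer B (adjusted p = 0.0125).

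Of the homologous factors, Fgf12 and Fgf14 were low where the receptors were high, and Fgf13 was not. Fgf12 (ENSMUST00000100024, chr16:28160098-28446277, minus strand) had 20.1, 20.9 and 26.6 CPM in layer A, 46.9, 32.2 and 85.9 CPM in layer B, and 45.9, 52.2 and 54.5 CPM in layer C. No layer A sample reached the lowest sample of layer B or C. The level in layer B was 2.44-fold that of layer A (log2 A minus B -1.28 ± 0.34 SE, adjusted p = 0.0177), and in layer C it was 2.25-fold that of layer A (log2 -1.17 ± 0.34 SE, adjusted p = 0.0384).
The first call was lost without layer A replicate 1 or 2 or layer B replicate 3, where the log2 value was -1.21, -1.23 and -0.76 and the adjusted p 0.0759, 0.0733 and 0.0735. The second was lost in 7 of 9 fits that left out 1 sample, all but those without layer B replicate 2 or 3, while the log2 value stayed between -1.29 and -1.09 in the 9 fits.

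Fgf14 (ENSMUST00000095529, chr14:123977907-124677127, minus strand) had 9.89, 17.2 and 12.4 CPM in layer A, 34.6, 28.4 and 22 CPM in layer B, and 22.8, 38.4 and 21.7 CPM in layer C. All layer A samples were below all others. The level was 2.15-fold higher in layer B than in layer A (log2 A minus B -1.10 ± 0.34 SE, adjusted p = 0.0345) and missed the threshold against layer C (log2 -1.06 ± 0.34 SE, adjusted p = 0.053). The call against layer B held in 3 of the 9 fits without 1 sample, those without layer A replicate 2, layer B replicate 3 or layer C replicate 2, and it was lost without each of the others, with adjusted p-values of 0.0512 to 0.166. Over the 9 fits the log2 value ran from -1.33 to -0.89.

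Fgf13 (ENSMUST00000033473, chrX:59062145-59134436, minus strand) had 105, 57.7 and 64.8 CPM in layer A, 35.8, 34.9 and 98.4 CPM in layer B, and 44.3, 48.7 and 29.8 CPM in layer C. Layer A was above layer C in every sample, and layer B overlapped layer A because of replicate 3. It passed neither test: A minus B was log2 0.43 ± 0.40 SE (adjusted p = 0.531) and A minus C was log2 0.89 ± 0.40 SE (adjusted p = 0.187). Without layer B replicate 3 it passed both in edgeR's test, at log2 1.15 (adjusted p = 0.0223) and 0.90 (adjusted p = 0.0434). Where Fgf12 and Fgf14 had lower levels in layer A, the point estimate of Fgf13 was thus above 0 in both comparisons.

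**Figure D2:**
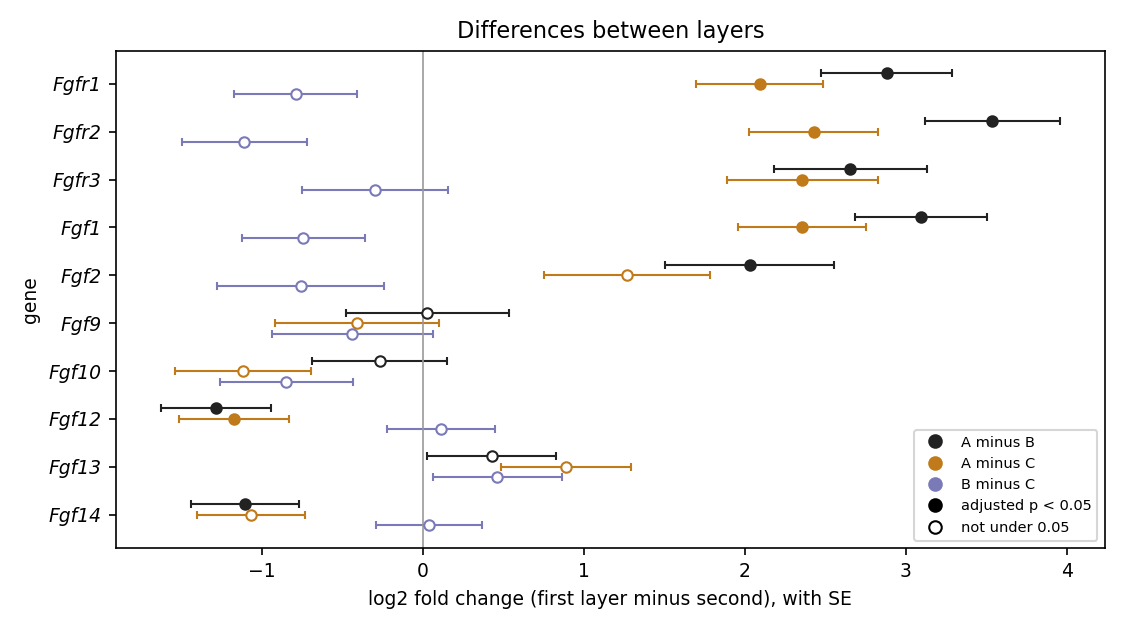
Log2 fold changes of the 10 members between pairs of layers, with standard errors; filled points passed an adjusted p of 0.05. The receptors, Fgf1 and Fgf2 lie between 1.27 and 3.54 for the comparisons with layer A, Fgf12 and Fgf14 between -1.28 and -1.06, and no point of B minus C is filled.

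Between layers B and C no member passed. The smallest adjusted p was 0.916, the median log2 difference over the members was -0.59 against 0.08 over all genes, and 1 member had an unadjusted p under 0.05. That member was Fgfr2, at log2 -1.11 ± 0.39 SE. Over all 56416 transcripts edgeR's test also passed 0 (0.0%), with 2316 at an unadjusted p under 0.05, and DESeq2 passed 130. Every layer B sample was below every layer C sample for 2 members, Fgfr2 and Fgf10, and for 4.99% of genes.

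Groups that did not overlap were counted in the same way for layer A. Against layer B, 5 members had every layer A sample above (19.3% of genes) and 2 every sample below (18.9%). Against layer C the counts were 6 (19.3%) and 3 (16.6%), and Fgf9 was the member left over.

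Levels of different genes were compared as CPM per kilobase of transcript. In layer A, Fgf13 led with 30.3 ± 10.2 (SD, n = 3) CPM per kb, followed by Fgf1 with 14.4 ± 5.68, Fgfr2 with 8.90 ± 4.0 and Fgfr3 with 7.76 ± 0.752, the last 2 within their spread of each other. In layers B and C the homologous factors took the first 3 places: Fgf13 had 22.6 ± 14.6 and 16.4 ± 3.96 CPM per kb, Fgf12 13.3 ± 6.70 and 12.3 ± 1.07, and Fgf14 7.85 ± 1.75 and 7.66 ± 2.59. Fgf1 came next there with 1.69 ± 0.803 and 2.81 ± 0.755. Among the homologous factors, replicate 3 raised the layer B means of Fgf13 (35.8, 34.9 and 98.4 CPM) and Fgf12 (46.9, 32.2 and 85.9 CPM). It was the lowest layer B sample for Fgf14 (34.6, 28.4 and 22 CPM). Division by length takes coverage as even along each transcript, which was not tested. The lowest were Fgf10 in layer A, at 0.472 ± 0.0555 CPM per kb, and Fgf2 in layers B and C, at 0.356 ± 0.172 and 0.608 ± 0.0685.

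The other transcripts that passed went in the direction of their gene's highest-count transcript. The 10 members have 82 annotated transcripts in the files, of which 70 were tested, 46 of these passing higher and 3 lower in layer A against layer B, and 39 higher and 2 lower against layer C. Of all 56416 tested transcripts, 16.5% passed in either direction against layer B and 11.3% against layer C. For Fgfr2, 21 of 23 tested transcripts passed against each layer, and those that passed had log2 values from 2.91 to 3.75 against layer B. Of the 11 tested transcripts of Fgfr3, 10 passed against layer B and 8 against layer C. None of 9 transcripts of Fgf13 passed either comparison. Several of these transcripts had near-equal counts, so they are not independent measurements.

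Counts were also read from transcripts that stop short of the distal 3′ end. For 8 members a transcript ends more than 500 bases before the highest-count one, and its count as a percentage of the latter differed between libraries. For Fgfr3 the transcript that stops 1461 bases short (ENSMUST00000087820) had 8.55, 28.6 and 14.2% in layer A, 26.0, 34.8 and 6.02% in layer B, and 30.9, 9.47 and 24.3% in layer C. In Fgf13 the transcript that stops 1345 bases short (ENSMUST00000138503) had 33.7, 29.9 and 19.5% in layer A, 36.0, 39.9 and 12% in layer B, and 37.0, 25.1 and 36.9% in layer C. The ranges of the 3 layers overlapped for both genes. These percentages are not corrected for transcript length, which is 2630 against 4225 bases for Fgfr3 and 666 against 2499 bases for Fgf13. Layer B replicate 3 was lowest for 5 of the 8 members, with a median of 12.1% over the 8, against 34.1 and 37.7% in the other layer B samples. Its part in the levels above was not tested.
Represented by the shorter transcripts, Fgfr1, Fgfr2, Fgfr3 and Fgf1 passed against layer B at log2 2.94, 3.27, 2.79 and 3.42 and against layer C at 2.08, 2.36, 1.95 and 2.35. The shorter Fgf13 transcript had 12.9, 13.9 and 11.8 CPM in layer B, where replicate 3 no longer stood out, and 35.3, 17.3 and 12.6 CPM in layer A. Its difference A minus B was log2 0.75 with an adjusted p of 0.193. This representation was chosen after the data were seen.

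**Figure D3:**
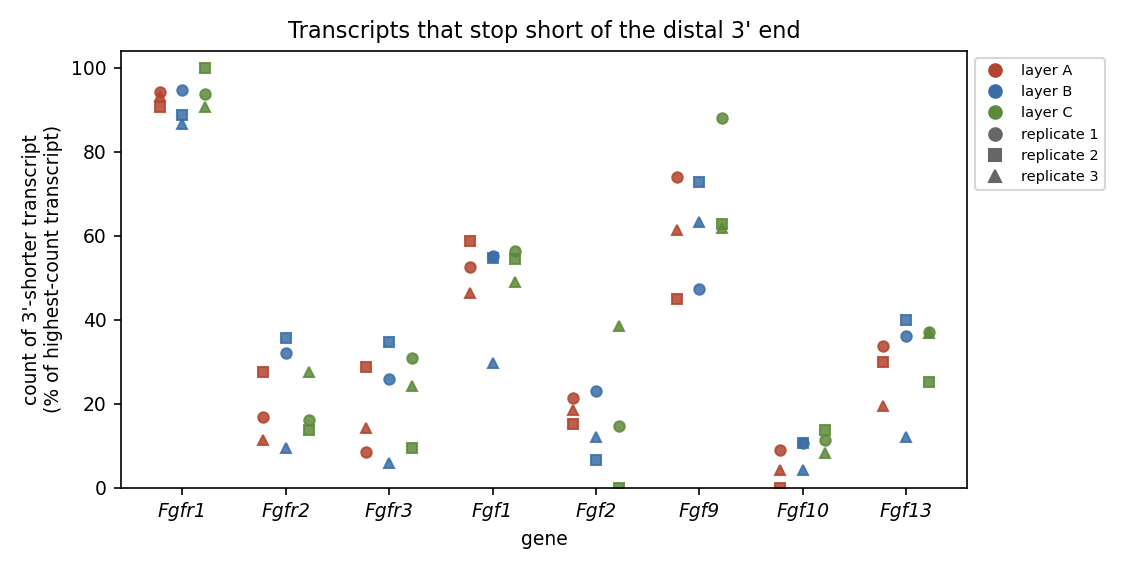
Count of the transcript that stops short of the distal 3′ end, as a percentage of the count of the highest-count transcript, for 8 members in each sample. Layer B replicate 3 (blue triangle) is lowest for 5 members, among them Fgfr3 at 6.02% and Fgf13 at 12%, while Fgfr1 stays between 86.6 and 100% in all samples.

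Markers of other cell types moved with these layers. Beside the counts below, 13.2% and 9.33% of all genes passed as higher in layer A against layers B and C, and 7.65% and 5.46% as lower. All 12 astrocyte markers passed as higher in layer A against both layers, and their summed level was 5140 to 10756 CPM in layer A, 736 to 1232 CPM in layer B and 1272 to 1755 CPM in layer C. The 12 had a median log2 fold change of 3.09 against layer B and 2.46 against layer C, beside 2.65 to 3.54 and 2.09 to 2.43 for the receptors. Against layers B and C in turn, endothelial markers passed as higher in 6 and 5 of 6, pericyte and smooth muscle markers in 6 and 6 of 6, and meningeal fibroblast markers in 8 and 8 of 8. Their summed levels were 108 to 134, 221 to 358 and 71.1 to 164 CPM in layer A, and no higher than 24.6, 66.1 and 8.46 CPM in any sample of layers B and C.
Microglia markers passed as higher in 5 and 5 of 6, with sums of 101 to 125, 15.7 to 33.9 and 34.6 to 50.8 CPM in layers A, B and C. Oligodendrocyte precursor markers passed in 5 and 1 of 5, with sums of 74.9 to 111, 13.7 to 30.3 and 32.7 to 48.0 CPM. Oligodendrocyte markers passed in 1 and 0 of 8, with sums of 168 to 272, 44.2 to 221 and 135 to 492 CPM.
Pan-neuronal markers passed as lower in layer A in 4 of 5 against each layer, and their sum was 807 to 1353 CPM in layer A, 2151 to 5733 CPM in layer B and 2459 to 3375 CPM in layer C. The glutamatergic list had 1 higher and 2 lower of 6 against layer B and 1 and 3 against layer C. Its median log2 fold changes were -1.08 and -0.99, and its largest values 1.87 and 1.41. Its sums, 2299 to 4221, 1068 to 1214 and 1058 to 1627 CPM in layers A, B and C, went the other way from these medians. The GABAergic list had 1 higher and 0 lower of 8 and 0 and 2, with medians of -0.57 and -1.23. Its sums were 194 to 349, 56.0 to 299.6 and 181 to 309 CPM. Single libraries had no count for Pvalb (layer A replicate 1) and for Acta2 and Aldh1a2 (layer C replicate 2). The part of these cell types in the members' differences was not tested, and in bulk tissue fewer cells of a type and less RNA per cell cannot be told apart.

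The genes most like each member in their 9 log2 CPM values were sought among 8420 protein-coding genes with a mean count of at least 100. For Fgfr3 these were Acsbg1 (r = 0.996) and Ezr (0.994), for Fgfr2 Lpp (0.995) and Kcnj10 (0.993), the latter an inward rectifier potassium channel of glia, for Fgfr1 Mfge8 (0.989) and Mgll (0.989), and for Fgf1 Rin2 (0.993). Fgf2 was closest to Cx3cr1 (0.971), the fractalkine receptor of microglia, and Cers2 (0.967). For Fgf12 they were Zwint (0.991) and Elavl4 (0.990), an RNA-binding protein of neurons, and for Fgf14 Cntnap5b (0.987) and Stxbp5l (0.971). Fgf13 was nearest to C1galt1 (0.993) and Sh3bgrl (0.951), Fgf9 to Kmt5a (0.980) and Bclaf1 (0.965), and Fgf10 to Kcnt2 (0.977) and Esrrg (0.970). Among the members, Fgfr1, Fgfr2, Fgfr3 and Fgf1 correlated with each other at 0.931 to 0.974, and Fgf13 correlated with these 4 at 0.512, 0.620, 0.686 and 0.623. With its relatives Fgf12 and Fgf14, Fgf13 correlated at -0.19 and -0.64. The correlations run over all 9 samples without adjustment for layer, so genes that differ between layers in the same direction tend to correlate. Outside the members, the genes named are among those of highest correlation out of the 8420 searched.

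Genes that act with FGFs outside and inside the cell were read from 6 lists. The median log2 fold change A minus B was 1.02 for the 4 tested genes of the rest of the family, -0.26 for the co-receptors and binding partners, 0.42 for the heparan sulphate genes, 0.05 for the receptor relay and 0.38 for the feedback and target genes, beside -0.16 over all genes. For A minus C these medians were 0.20, -0.32, 0.18, 0.29 and 0.20, beside -0.02 over all genes. The FGF co-receptors and binding partners gave 1 higher and 3 lower of 9 tested in layer A against layer B, and 1 and 2 against layer C. Fgfbp1, a secreted carrier of FGFs, had 1.94, 0.4 and 3.69 CPM in layer A, no count in replicates 1 and 2 of layers B and C, and 0.125 and 0.0936 CPM in their replicate 3 (adjusted p = 0.00502 and 0.00996). L1cam, a neural adhesion molecule that can bind FGF receptors, fell by 1.83 and 2.02 on the log2 scale against layers B and C (adjusted p = 0.00175 and 0.0027). Flrt3 fell by 1.03 and 1.13, and Flrt2, a relative of it, by 0.90 against layer B.

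Heparan sulphate carriers that passed were higher in layer A, and the enzymes that passed were lower. Of 19 tested genes, 4 were higher and 3 lower against layer B, and 4 and 1 against layer C. Sdc4, a syndecan, had 95.5, 110 and 55.0 CPM in layer A against 7.07, 5.95 and 10.4 CPM in layer B and 10.2, 8.47 and 22.4 CPM in layer C (log2 3.47 and 2.65, adjusted p = 0.000227 and 0.00241). The glypicans Gpc5 and Gpc6 rose by log2 3.29 and 2.81 against layer B and by 2.73 and 1.79 against layer C, and Hspg2, the basement membrane proteoglycan perlecan, rose by 3.06 and 2.43. The genes that passed as lower were Hs6st1, Hs6st2 and Ext1, which make or modify the chains, and against layer C Ext1 alone.

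Inside the cell, the receptor relay gave 1 higher and 2 lower of 14 against each layer, a share of 21.4% beside 20.9% and 14.8% of all genes. Gab1, an adaptor downstream of the receptors, rose by log2 2.30 and 1.91 (adjusted p = 0.00072 and 0.00463), while the kinase Map2k1 fell by 1.71 against layer B and by 1.03 against layer C. Frs2, the adaptor of the receptors, had 44.0, 28.9 and 20.1 CPM in layer A, within or above the 19.7 to 28.7 CPM of the other layers, and did not pass.
Feedback and target genes gave 2 higher and 1 lower of 14 against layer B and 1 and 1 against layer C, or 21.4% and 14.3%, which is near the 20.9% and 14.8% of all genes. The inhibitor Spry4 had 8.46, 10.1 and 3.61 CPM in layer A and 1.70, 1.96 and 2.33 CPM in layer B (log2 1.87, adjusted p = 0.00596), with 5.12, 5.73 and 4.80 CPM in layer C. Etv4, a transcription factor of FGF signalling, rose by 2.75 and 2.58 at levels under 2 CPM, and Egr1, which neuronal activity also induces, fell by 1.79 and 1.97. Dusp6 and Etv5, often used as targets of the pathway, did not pass, at log2 -0.50 and 0.65 against layer B.

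The partners of the homologous factors, sodium channel subunits and their anchors, were lower in layer A in 8 of 12 tested against each layer, with none higher and medians of -1.48 and -1.35 on the log2 scale. Scn2a had 49.8, 73.2 and 56.1 CPM in layer A, 203, 195 and 160 CPM in layer B and 167, 180 and 134 CPM in layer C (log2 -1.64 and -1.43, adjusted p = 0.00126 and 0.00602). Scn8a fell by 1.55 and 1.72, the accessory subunit Scn3b by 1.87 and 1.74, and Ank3, the ankyrin that holds the channels at the axon initial segment, by 1.43 and 1.70. The pan-neuronal markers given above moved the same way, and their part was not tested. In all, 27 of the 72 tested genes of the 6 lists (37.5%) passed against layer B and 22 (30.6%) against layer C, beside 20.9% and 14.8% of all genes. Without layer A replicate 1 the counts were 17 and 11, and without layer C replicate 1 or 2 the second count was 10 and 14. Calls over all transcripts fell in the same fits of A against C, from 6389 on all samples. They were 2726 without layer A replicate 1, and 1369 and 3785 without layer C replicate 1 and 2.

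**Figure D4:**
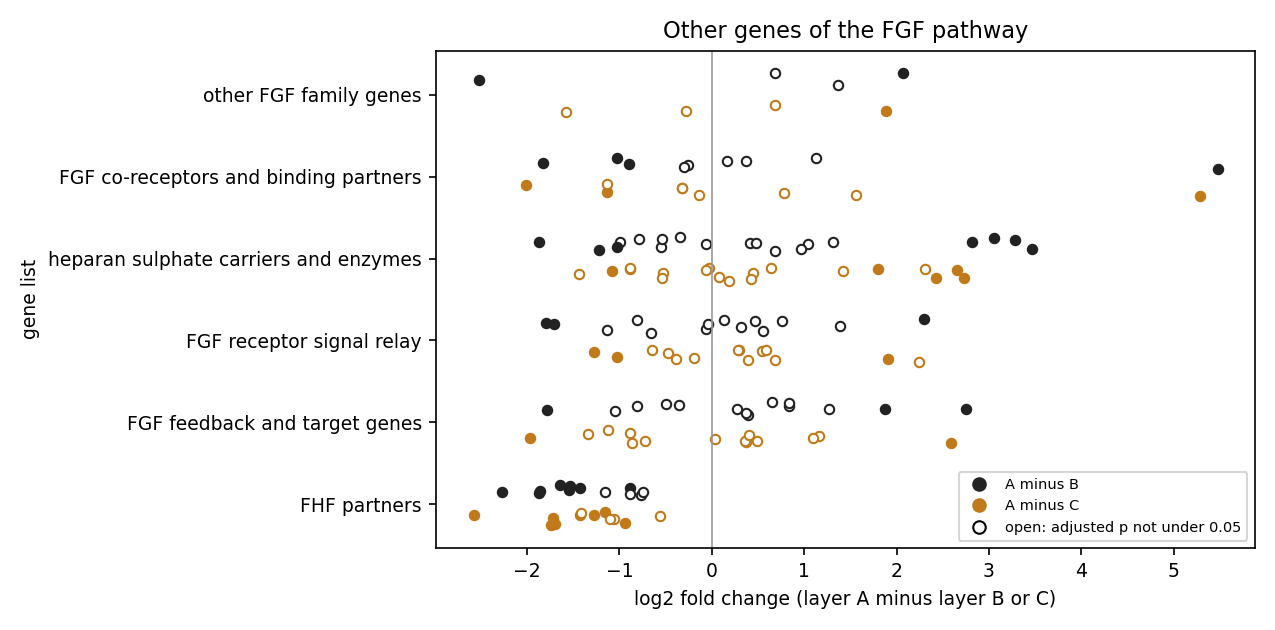
Log2 fold changes of the tested genes of 6 lists of the FGF pathway for layer A minus layer B (black) and layer A minus layer C (orange), with open points where the adjusted p was not under 0.05. All 12 partners of the homologous factors lie below 0, 8 of them filled in each comparison, while the heparan sulphate list runs from -1.87 to 3.47 against layer B; the points of Fgfbp1 at the far right rest on counts near 0 in layers B and C.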

How the data were processed

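Layers A, B and C of mouse piriform cortex, collected by laser capture, were measured in 3 samples each. The authors extracted RNA, amplified it with the Ovation system, sequenced it and mapped it to mm10. Per the labels the tools included bcl2fastq 1.8.4, Bowtie and HTSeq 0.5.3. The deposited files hold raw counts per Ensembl transcript, without normalization. How reads shared by several transcripts were counted and which Ensembl release was used are not given in the sources used here. Amplified reads are not independent molecules, and reads of shared exons or of paralogs may be counted more than once or lost.

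Identifiers were matched to GENCODE M21 on GRCm38, the assembly of mm10: 82807 of 95533 were found, and transcript ends may differ in the authors' release. The low-count filter asked for 10 counts in 3 or more samples. Kept transcripts were scaled by TMM and tested in edgeR 4.0.16, run under R 4.3.3 (quasi-likelihood F-test, all 9 samples in 1 fit, layer as the only factor, Benjamini-Hochberg adjustment over all tested transcripts, threshold 0.05). Standard errors were obtained from the F statistic and the log2 fold change. Each gene was read from its transcript with the highest mean count. The steps were also run on negative binomial counts simulated with the means, library sizes and dispersions of these data. Such counts follow the model of the test, so this checks the code and not whether the data follow that model.

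The members, gene lists and tests were chosen with earlier results of these data known. All 10 members are named, with up to 4 genes of each pathway list that have the smallest adjusted p in any pair of layers and passed, genes given for being near or below detection or not passing (Fgfr4, Fgf20, Frs2, Dusp6, Etv5, Hs6st1, Hs6st2, Ext1, chosen after their values were seen), and the 2 genes of highest Pearson correlation with each member (log2 CPM, prior count 2). Alternatives were RLE size factors, DESeq2 1.42.0, other low-count filters, a replicate block, 6-sample fits, removal of mitochondrial transcripts, sums by gene, 1 transcript per gene, another choice of transcript, and each sample left out in turn. Replicates of a layer differed by more than counting noise, so no pair was treated as the same library deposited again. Separate libraries of the same sample would differ in this way too. Columns of other samples were not present, and proteins were not analysed here. Some genes that this rule would name are not reported here.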

Additional observations from a re-analysis of the deposited data

How the results depend on the processing

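Of 591 values of the members' log2 fold changes under alternatives, 543 kept their direction and side of the threshold, 22 lost a call, 11 gained one and 15 changed sign, none of these from a called value. The number of members called was 7 for A against B and 6 over all 3 layers, and no alternative on all samples moved either by more than 1.5 times. Leaving out 1 sample gave 5 to 7 members for A against B, 3 to 8 for A against C (3 without layer C replicate 1, 8 without layer B replicate 3), 0 for B against C and 4 to 9 over all layers (9 without layer B replicate 3). For the pathway lists it gave 17 to 28 genes for A against B and 10 to 31 for A against C. Calls over all transcripts in these fits also varied, from 5571 to 11336 for A against B and from 1369 to 9742 for A against C. Over all 3 layers they ran from 4070 to 11312. The 6-sample fit of layers A and B called 5 members, losing Fgf12 (adjusted p = 0.0509) and Fgf14 (0.0626). For A against C, Fgf14 passed at adjusted p-values of 0.0299 to 0.0474 with DESeq2, without a low-count filter, in 6 samples, without mitochondrial transcripts, with sums by gene and with 1 transcript per gene, and Fgf2 passed at 0.0422 with at least 10 counts in all 9 samples.

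Signs changed only in uncalled comparisons. Fgf9 for A against B was -0.016 without a low-count filter and -0.025 with the replicate block, and Fgf13 for B against C was -0.037 by its transcript ending short of the 3′ end. Leaving out 1 sample gave ranges across 0 for Fgf9 (-0.49 to 0.41 for A against B, -0.93 to 0.065 for A against C, -0.77 to 0.036 for B against C) and Fgf10 (-0.47 to 0.15 for A against B), and for B against C also for Fgfr3 (-1.25 to 0.024), Fgf12 (-0.41 to 0.36), Fgf13 (-0.26 to 0.69) and Fgf14 (-0.17 to 0.35). The cause was not tested, beyond the smaller number of samples.

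The replicate numbers were not treated as pairs in the main fit. Same-numbered samples of different layers correlated in their deviations at -0.19 to 0.24, over 0.1 in 4 of 9 pairs. Differently numbered samples correlated at -0.37 to 0.39, over 0.1 in 6 of 18 pairs. With 3 samples per layer, these values cannot tell whether same-numbered samples came from the same animal. With the replicate block 7, 5 and 0 members were called for A against B, A against C and B against C, and 9184, 6384 and 0 transcripts in all. Low counts limit Fgf2, with 13 to 91 counts per sample, and the 13 family genes below the filter.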
